A study of Mus musculus with 6 samples.

Results

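The Hox genes of the mouse were followed through the loss of a phosphatase scaffold in leukaemic pre-B cells. The members were chosen by gene symbol: every probe set annotated to 1 symbol made of Hoxa, Hoxb, Hoxc or Hoxd and a number, without antisense or opposite-strand transcripts. Where a gene had several probe sets the rule took the one with the highest mean over the arrays, but 0 members had more than 1, so no level entered the choice. The rule gave 37 Hox genes, among 19733 genes tested. Hoxb8 shares a probe set with Hoxb7 and was kept out. The family was picked for description with the Cre and EV results of these arrays already known, so its counts below describe the family and are not independent support for any pattern in it.

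Expression was measured on 6 Affymetrix arrays of mouse bone marrow pre-B cells that carried Ppp2r1a fl/fl alleles and had been transduced with BCR-ABL1, the fusion kinase of a form of acute lymphoblastic leukaemia. In 3 arrays the cells had also received Cre, a recombinase that deletes the floxed Ppp2r1a, whose product is the scaffold on which protein phosphatase 2A (PP2A) is built, and in 3 they had received an empty vector (EV). All 6 arrays therefore share the floxed alleles and the oncogene, and no array held Cre in cells without floxed alleles, so an effect of Cre itself and loss of PP2A cannot be told apart. The labels number the repeats without saying whether they came from separate mice or cultures, so the p-values rest on a spread between arrays that may be technical. The time after transduction is also not given. Values are log2 expression levels, where a difference of 1 is a doubling, and a gene was called when its limma p, adjusted over all genes tested, was below 0.05. The deleted gene, Ppp2r1a, read 7.12, 6.98 and 6.92 in Cre and 9.06, 9.05 and 9.06 in EV, so it was low in every array labelled Cre.

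Hox genes encode transcription factors with a homeodomain, the fold that binds DNA, and they specify position along the body axis of the embryo. They lie in 4 clusters, A on chromosome 6, B on 11, C on 15 and D on 2, and genes with the same number in different clusters are paralogues that descend from 1 ancestral gene. The low numbers lie at one end of a cluster and are active early and towards the head, the high numbers lie at the other end. In blood, Hoxa and Hoxb genes are active in stem and progenitor cells and are switched down as cells mature, and high HOXA expression is a hallmark of leukaemias with a rearranged MLL gene. Polycomb complexes keep the clusters silent, MLL (Kmt2a) complexes keep them active, and PBX and MEIS proteins bind DNA together with HOX proteins.

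A run of neighbouring genes in cluster A, Hoxa3, Hoxa4, Hoxa5, Hoxa6 and Hoxa7, were higher in the Cre cells, by between 1.35-fold and 3.42-fold. They were the 5 members called higher of 37, against 1.35% of all genes tested, and 0 members were called lower, against 2.14% of all genes. At an unadjusted limma p below 0.05 there were 6 members, all in cluster A and all higher, against 7.1% of all genes higher and 9.02% lower at that threshold. The contrast was known when the family was picked, so nothing is read from the gap between these shares. In bulk RNA, more cells with a transcript and more of it per cell cannot be told apart. None of the 27 genes measured in clusters B, C and D was called by limma, and 0 of them had an unadjusted p below 0.05. The median difference between Cre and EV was 0.40 in cluster A, -0.07 in B, -0.01 in C and 0.01 in D, beside a median of 0.01 over all 37 members and -0.003 over all genes tested. Most Hox probe sets were dim: the mean level of 31 of the 37 lay below the array medians of 5.22 to 5.27, and near background an array difference tends to understate a fold. A level on these arrays also depends on the probes, so levels of different genes are not ranked against each other.

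**Figure D1:**
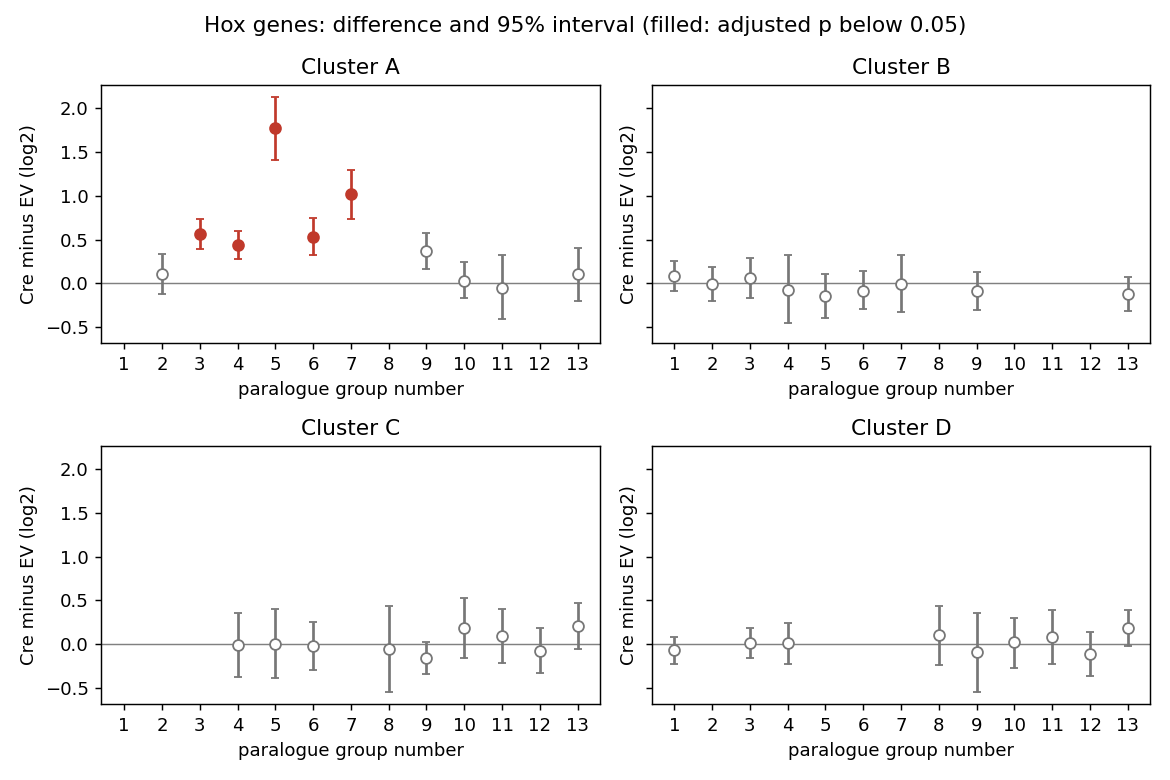
Difference between Cre and EV (log2, vertical axis) for each of the 37 Hox genes by paralogue group number (horizontal axis), with 1 panel for each cluster; points are limma estimates from 3 Cre and 3 EV arrays, bars are 95% confidence intervals, and filled points passed an adjusted p below 0.05. The 5 filled points are Hoxa3 to Hoxa7, and the 27 points of clusters B, C and D lie between -0.16 and 0.21.

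Hoxa5, which in blood takes part in the choice between the myeloid and the erythroid line, had the largest difference of the family. Its levels were 5.32, 4.89 and 4.85 in Cre and 2.99, 3.34 and 3.42 in EV. All Cre arrays lay above all EV arrays by a wide margin, with EV readings among the dimmer of the family. Its mean went from 3.25 ± 0.23 to 5.02 ± 0.26 (SD, n = 3), a difference of 1.77 (SE 0.15; limma adjusted p = 0.00106). The 95% interval of that difference ran from 1.41 to 2.13. Hoxa7, the next called gene towards the high-numbered end beyond Hoxa6, is known from leukaemias with MLL rearrangement, where it is raised together with Hoxa9. It read 6.22, 6.0 and 6.28 in Cre and 5.37, 5.11 and 4.98 in EV. The groups again did not overlap, and Hoxa7 rose 2.02-fold (difference 1.02, SE 0.12; limma adjusted p = 0.00424).

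The other 3 genes of the block rose by smaller amounts. Hoxa3, a gene of head and pharyngeal patterning that is also active in the embryonic blood vessel wall, read 4.40, 4.41 and 4.22 in Cre and 3.77, 3.84 and 3.74 in EV. It was 1.48-fold higher (difference 0.56, SE 0.08; limma adjusted p = 0.00754). Hoxa4, a paralogue of the stem cell regulator Hoxb4, read 6.08, 6.03 and 6.08 in Cre and 5.69, 5.53 and 5.66 in EV. The spread within each group was small beside the gap of 0.44 between them (SE 0.07; limma adjusted p = 0.0153). Hoxa6, which lies between Hoxa5 and Hoxa7, read 5.22, 5.22 and 5.40 in Cre and 4.78, 4.60 and 4.85 in EV, a difference of 0.53 (SE 0.09; limma adjusted p = 0.0213). In fits that left out 1 of the 6 arrays, Hoxa3, Hoxa5 and Hoxa7 passed in all 6, with highest adjusted p-values of 0.0378, 0.0067 and 0.0231. Hoxa4 kept it only when EV replicate 1 or EV replicate 3 was the array removed, reaching 0.0634 without Cre replicate 1. Hoxa6 kept it only when EV replicate 3 was removed, reaching 0.0745 without Cre replicate 3. The family had 3 calls rather than 5 without Cre replicate 1, Cre replicate 2, Cre replicate 3 or EV replicate 2.

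**Figure D2:**
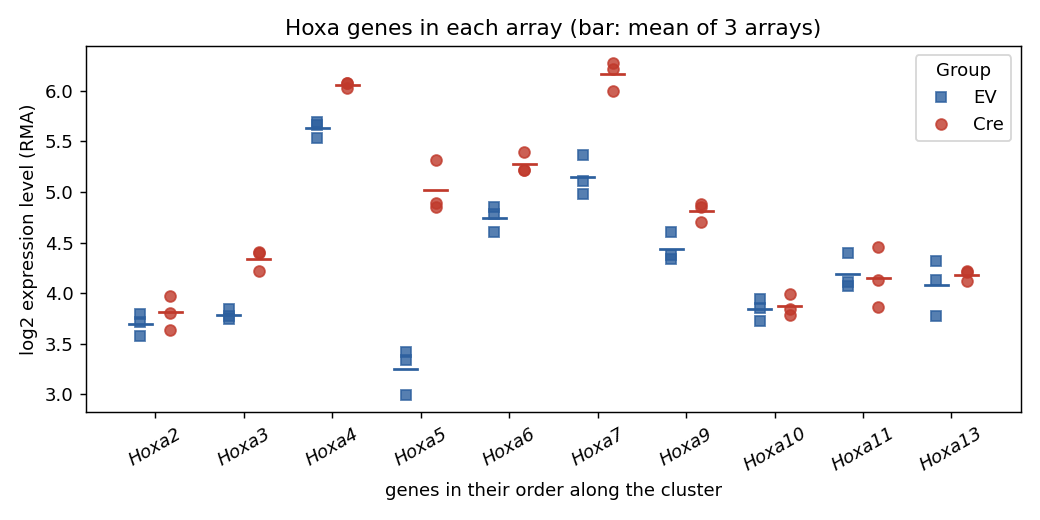
Log2 expression level (vertical axis) of the 10 measured Hoxa genes in each array, in their order along the cluster (horizontal axis); squares are the 3 EV arrays, circles the 3 Cre arrays, and bars the group means. Circles lie above squares without overlap from Hoxa3 to Hoxa9. The groups mix at Hoxa2 and at Hoxa10, Hoxa11 and Hoxa13, whose means lie below the array medians.

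Towards both ends of cluster A the groups came together. Hoxa2, which patterns the hindbrain and the second pharyngeal arch, read 3.64, 3.80 and 3.97 in Cre and 3.71, 3.58 and 3.79 in EV. These readings overlapped, and the 95% interval of the difference ran from -0.12 to 0.34. On the other side Hoxa9, a driver of self-renewal in myeloid leukaemia, read 4.70, 4.88 and 4.85 in Cre and 4.60, 4.38 and 4.34 in EV. Its arrays did not overlap, but the difference of 0.37 (SE 0.09) missed the threshold (limma adjusted p = 0.0802). With the dimmest 25% of genes left out before the fit, Hoxa9 had an adjusted p of 0.0474. Hoxa10, which also acts in myeloid progenitors, differed by 0.03 (SE 0.09) between mixed readings of 3.99, 3.78 and 3.84 in Cre and 3.94, 3.85 and 3.72 in EV. Hoxa11 and Hoxa13, genes of limb and urogenital development, differed by -0.05 (SE 0.16) and 0.11 (SE 0.13), with intervals from -0.41 to 0.32 and from -0.20 to 0.41. In cluster A, 8 of the 10 genes had mean readings below the array medians, Hoxa2, Hoxa10, Hoxa11 and Hoxa13 among them. At such dim probe sets a small difference in reading sets no limit on the change in RNA, so these genes mark no edge of the block.

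Counted by non-overlap alone, 7 members had all 3 Cre arrays above all 3 EV arrays, against 10.3% of all genes, and 1 had all 3 below, against 12.2% of all genes. The 7 were Hoxa3, Hoxa4, Hoxa5, Hoxa6, Hoxa7, Hoxa9 and Hoxd13. Hoxd13, a gene of digit formation, read 3.97, 4.05 and 4.23 in Cre and 3.93, 3.80 and 3.96 in EV, a difference of 0.19 (SE 0.09; limma adjusted p = 0.365). The 1 member below was Hoxc9, at 3.98, 4.19 and 4.14 in Cre and 4.27, 4.33 and 4.20 in EV (difference -0.16, SE 0.08; limma adjusted p = 0.387). For both genes the gap between the nearest arrays of the groups was far smaller than the difference itself.

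RefSeq models of the block are nested, which bears on what each probe set can report. The model of Hoxa3 overlaps those of Hoxa4, Hoxa5 and Hoxa6, because its most distant start lies between Hoxa6 and Hoxa7. How far a probe set of the block also reads the longer Hoxa3 transcript was not tested. Hoxa7 has no overlapping Hox model. The 250 bases before the start are shown for the 4 called genes with an entry in the RefSeq promoter table, because they belong to the genes that moved together; CG dinucleotides, the sites of DNA methylation, are in capitals. All are from the minus strand of GRCm38.p6, written 5′ to 3′: Hoxa3 at chr6:52213068-52213317, Hoxa5 at chr6:52204588-52204837, Hoxa6 at chr6:52208673-52208922 and Hoxa7 at chr6:52218574-52218823.
Hoxa3: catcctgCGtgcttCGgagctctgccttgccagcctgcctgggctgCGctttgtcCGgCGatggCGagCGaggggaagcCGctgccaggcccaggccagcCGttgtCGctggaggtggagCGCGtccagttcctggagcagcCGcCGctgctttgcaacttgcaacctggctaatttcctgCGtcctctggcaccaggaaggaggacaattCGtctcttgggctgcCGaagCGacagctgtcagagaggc
Hoxa5: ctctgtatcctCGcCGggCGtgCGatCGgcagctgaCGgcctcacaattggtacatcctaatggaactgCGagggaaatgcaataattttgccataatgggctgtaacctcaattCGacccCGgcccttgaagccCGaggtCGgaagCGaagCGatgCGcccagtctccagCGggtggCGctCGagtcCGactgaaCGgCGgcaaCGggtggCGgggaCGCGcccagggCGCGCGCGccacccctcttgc
Hoxa6: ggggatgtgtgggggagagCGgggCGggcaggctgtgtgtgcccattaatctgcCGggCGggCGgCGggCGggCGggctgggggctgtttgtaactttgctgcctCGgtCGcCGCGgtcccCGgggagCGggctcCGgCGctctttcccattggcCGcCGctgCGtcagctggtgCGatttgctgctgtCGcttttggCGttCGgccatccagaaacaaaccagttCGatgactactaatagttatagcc
Hoxa7: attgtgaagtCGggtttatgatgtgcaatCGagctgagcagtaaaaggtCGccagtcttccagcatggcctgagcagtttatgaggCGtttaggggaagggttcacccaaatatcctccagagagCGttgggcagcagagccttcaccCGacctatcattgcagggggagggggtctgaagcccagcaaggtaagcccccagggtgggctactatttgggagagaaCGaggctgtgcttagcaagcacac

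These stretches are not alike in CG content. Hoxa5, the gene with the largest difference, has 28 CG dinucleotides, Hoxa6 has 24 and Hoxa3 has 18, while Hoxa7 has 7. Over 32851 promoter entries of the mouse the median was 6, with quartiles at 2 and 16, and over the 24 Hox entries it was 12.5. Beyond the block, the same stretch held 6 for Hoxa2, 3 for Hoxa9, 13 for Hoxa11 and 35 for Hoxa13. The entries of Hoxa10 held 20 and 7. High counts were therefore found both inside the block and at genes whose groups overlapped. Both strands of these 250 bases were searched for TGATTNAT, a site that HOX and PBX proteins bind together, for AGGTCA, a half-site of retinoid and other nuclear receptors, and for TATAAA, the TATA box. None of the 3 was present in the 4 stretches printed, and they occurred in 2.82%, 14% and 12.4% of all entries. Among the 24 Hox entries, which cover 22 genes, TGATTNAT was found at Hoxa2 and Hoxd11, AGGTCA at Hoxb4, Hoxc4, Hoxd3, Hoxd4, Hoxd8 and Hoxd10, and TATAAA at Hoxa10, Hoxb8, Hoxd4 and Hoxd13. Hoxa10 and Hoxd11 have 2 entries each, and a match is only a match of letters.

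The paralogues of the block gave small differences. In group 5, the difference of 1.77 for Hoxa5 stood beside -0.14 for Hoxb5 and 0.00 for Hoxc5. In group 7, Hoxa7 differed by 1.02 and Hoxb7 by -0.01, with Hoxb7 reading 5.84, 5.45 and 5.60 in Cre and 5.75, 5.37 and 5.80 in EV. In group 6 the values were 0.53 for Hoxa6, -0.08 for Hoxb6 and -0.02 for Hoxc6. In group 4 they were 0.44 for Hoxa4, -0.07 for Hoxb4, -0.01 for Hoxc4 and 0.01 for Hoxd4, and in group 3 they were 0.56 for Hoxa3, 0.06 for Hoxb3 and 0.01 for Hoxd3. Groups 3 to 7 are those whose A-cluster member was called, so a higher value for that member follows from the choice. In group 9, Hoxa9 differed by 0.37 and its paralogues by between -0.16 and -0.08. In groups 10, 11 and 13 the order was another: Hoxa10 differed by 0.03 and Hoxc10 by 0.19, Hoxa11 by -0.05 and Hoxc11 by 0.09, and Hoxa13 by 0.11, Hoxc13 by 0.21 and Hoxd13 by 0.19. The differences between paralogues were not tested.

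Within clusters B, C and D, 23 of the 27 genes had mean readings below the array medians. The 95% intervals of the measured differences lay between -0.55 and 0.53 for all 27; at dim probe sets these are intervals of the array reading and set no limit on the change in RNA. Hoxb3, a gene of early blood progenitors, read 6.27, 6.27 and 6.24 in Cre and 6.15, 6.04 and 6.41 in EV. Its EV arrays enclosed the Cre arrays, with a difference of 0.06 (SE 0.10). Hoxb4, known to expand blood stem cells when forced on, was steady in Cre at 4.92, 4.96 and 4.90 and scattered in EV at 4.58, 5.28 and 5.12. The widest SE of the family, 0.21, belonged to Hoxc8. Hoxd11, a gene of the forearm and kidney, read 4.44, 4.53 and 4.74 in Cre and 4.67, 4.20 and 4.57 in EV. The groups of Hoxd11 overlapped. The probe set shared by Hoxb8 and Hoxb7 read 4.38, 4.44 and 4.22 in Cre and 4.25, 4.21 and 4.24 in EV, which overlapped (difference 0.12).

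Other transcripts of the cluster A region were compared with the block. Mir196b, the microRNA gene between Hoxa9 and Hoxa10, read 4.53, 4.25 and 4.16 in Cre and 3.96, 4.14 and 3.83 in EV. The groups were apart by a narrow margin, and the difference of 0.34 (SE 0.12) did not pass (limma adjusted p = 0.216). The probe set belongs to the gene and does not separate the mature arms. Its 5′ arm is printed with that of its relatives in clusters B and C, Mir196a-1 and Mir196a-2, to show the seed they share (bases 2 to 8, in capitals); sequences are from RefSeq, GRCm38.p6.
miR-196b-5p: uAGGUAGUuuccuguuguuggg
miR-196a-5p: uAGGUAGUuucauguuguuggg

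The arms differ by A12C, with miR-196a-5p first and positions counted from the 5′ end, outside the seed. MicroRNAs of this seed are known to bind Hox messages. Mir196a-1 differed by -0.22 (SE 0.10) and Mir196a-2 by -0.04 (SE 0.09), and neither passed. Mir10a of cluster B was among the dimmest readings of the table, at 1.94, 1.80 and 1.75 in Cre and 2.22, 2.08 and 2.04 in EV; its arrays did not overlap, and it did not pass (difference -0.28, SE 0.08; limma adjusted p = 0.129). Mir10b of cluster D differed by 0.13 (SE 0.09). The antisense transcript Hoxaas2 differed by 0.15 (SE 0.09), and the long non-coding RNA 5730596B20Rik, also inside cluster A, by 0.36 (SE 0.19), with 1 Cre array at 4.89 above readings of 4.09 and 4.19 in the others.

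The protein-coding genes that flank cluster A were not called. On the low-numbered side, beyond Hoxa2, Skap2, a Src kinase adaptor, read 7.51, 7.30 and 7.22 in Cre and 7.04, 7.12 and 7.04 in EV. Its groups did not overlap, yet the difference of 0.28 (SE 0.09) did not pass (limma adjusted p = 0.167), except with a variance trend and robust moderation, where it was 0.0462. Snx10, a sorting nexin further out, differed by 0.17 (SE 0.08), and Cbx3, a heterochromatin protein, by 0.02 (SE 0.06). On the Hoxa13 side, the homeobox gene Evx1 differed by -0.05 (SE 0.07), and the metabolic gene Hibadh and Tax1bp1, an autophagy receptor, by 0.00 and -0.05. Around clusters B, C and D, 15 flanking genes were measured, with differences between -0.16 and 0.12. Limma called 0 of them, and 1 had an unadjusted p below 0.05, against 16.1% of all genes. In cluster A, Hoxa3 to Hoxa7 differed by 0.44 to 1.77, where 0.44 is only the smallest difference among these called genes. Hoxa9 (0.37), 5730596B20Rik (0.36) and Mir196b (0.34) lay just below it, so that value marks no sharp edge.

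**Figure D3:**
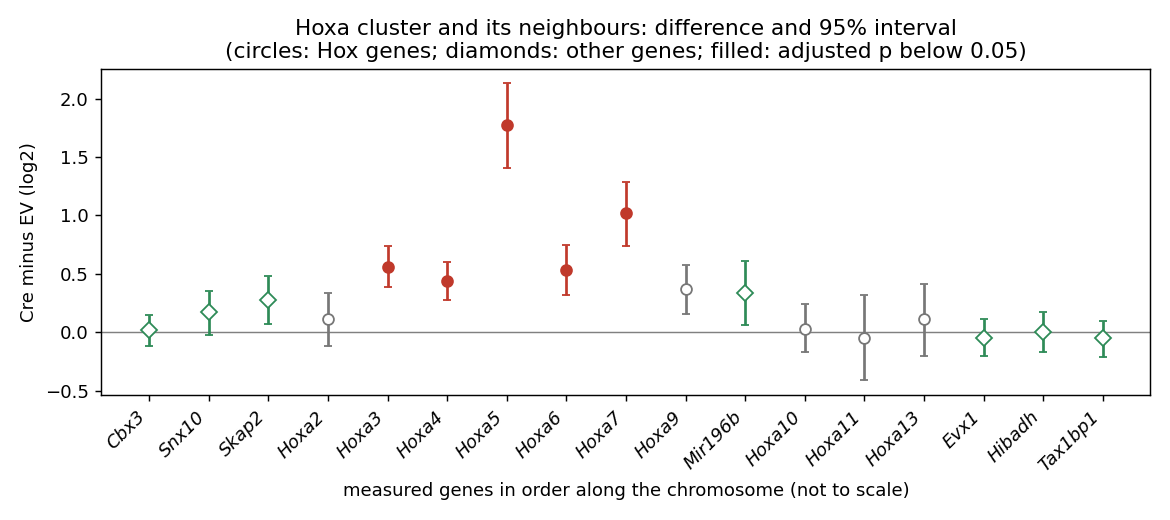
Difference between Cre and EV (log2, vertical axis) for the measured Hoxa genes (circles), Mir196b and the 3 nearest protein-coding genes on each side (diamonds), in chromosome order and not to scale; bars are 95% confidence intervals of the limma fit to 3 Cre and 3 EV arrays, and filled symbols passed an adjusted p below 0.05. The difference is 0.11 at Hoxa2, 0.44 to 1.77 over Hoxa3 to Hoxa7, 0.37 at Hoxa9 and 0.03 at Hoxa10.

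Of the proteins that bind DNA with HOX factors, Pbx3 alone was called, and it was lower. Among 8 measured genes of the PBX, MEIS and PKNOX families 1 fell and 0 rose, with a median of 0.01. Over all genes, 2.14% were called lower and 1.35% higher. Pbx3, a partner of HOXA9 in leukaemia, read 4.63, 4.96 and 4.89 in Cre and 5.72, 5.56 and 5.75 in EV. The gap of 0.85 below EV was several times its error, and Pbx3 was 1.80-fold lower (limma adjusted p = 0.00469). Meis1, the classic partner of Hoxa9, was dim in both groups and differed by -0.09 (SE 0.09). Pknox2 differed by -0.17 (SE 0.08).

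Among the chromatin regulators of the clusters, 3 of 25 Polycomb genes were called and 0 of 18 genes of MLL and DOT1L complexes, beside 1.35% of all genes called higher and 2.14% lower. Bmi1, a PRC1 subunit known for repressing the Ink4a locus and sustaining stem cells, read 8.89, 8.90 and 8.86 in Cre and 8.35, 8.38 and 8.55 in EV. It was 1.37-fold higher (difference 0.46, SE 0.07; limma adjusted p = 0.0166). Its relatives Pcgf1 and Pcgf2 take the same place in other PRC1 complexes. Pcgf1 read 6.23, 5.97 and 5.92 in Cre and 6.62, 6.44 and 6.80 in EV, 1.5-fold lower (limma adjusted p = 0.0399). Pcgf2 read 5.57, 5.92 and 5.82 in Cre and 6.24, 6.25 and 6.24 in EV, 1.38-fold lower (limma adjusted p = 0.0421). All 3 calls depended on which array was removed: the limma adjusted p rose to at most 0.0688 for Bmi1, which passed only without EV replicate 3, to 0.141 for Pcgf1, which passed only without Cre replicate 1 or EV replicate 2, and to 0.125 for Pcgf2, which passed only without Cre replicate 2. Pcgf6, another relative, had all Cre arrays below all EV arrays but was not called (difference -0.29, SE 0.07, limma adjusted p = 0.0623). With it, 4 of the 25 Polycomb genes had an unadjusted limma p below 0.05, against 16.1% of all genes. Ezh2, the PRC2 methyltransferase, and its partner Suz12 each differed by 0.10 (SE 0.06). In the MLL list 2 genes had an unadjusted limma p below 0.05, a threshold that 16.1% of all genes passed in either direction: Kmt2d (-0.17, SE 0.06) and Kmt2c (0.19, SE 0.07), while Kmt2a itself differed by 0.07 (SE 0.07) and Men1, its menin cofactor, by -0.01 (SE 0.07). The median was -0.00 in the Polycomb list and 0.02 in the MLL list.

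Genes of the CDX and retinoid inputs that drive Hox genes in the embryo, listed with the ParaHox genes, were not called. Most were dim: 5 of 6 CDX and ParaHox genes and 12 of 17 retinoid genes had means below the array medians. None of 6 CDX and ParaHox genes was called by limma, and 0 had an unadjusted p below 0.05; Pdx1 (0.14, SE 0.07) and Cdx4 (-0.17, SE 0.10) had the smallest p-values. None of 17 retinoid receptors and enzymes was called either, and 1 had an unadjusted p below 0.05, against 16.1% of all genes. It was Aldh1a3, which makes retinoic acid, at 0.25 (SE 0.09), with Dhrs3 at -0.22 (SE 0.11) and the receptor Rara at 0.12 (SE 0.08). Of 8 genes of CTCF and cohesin, which fold the clusters into domains, Wapl rose and 0 fell. Over all genes, 1.35% were called higher and 2.14% lower. Wapl, which releases cohesin from DNA, read 8.80, 8.76 and 8.89 in Cre and 8.30, 8.34 and 8.38 in EV, 1.39-fold higher (difference 0.48, SE 0.07; limma adjusted p = 0.00797). Stag1, a cohesin subunit, differed by 0.14 (SE 0.06). A list of 13 genes was compiled around HOX factors in leukaemia, and no link of a member to HOX factors was tested. In it, 1 rose and 1 fell, beside 1.35% of all genes called higher and 2.14% lower. Of the 13, 4 had an unadjusted limma p below 0.05. Lmo2, an adaptor of blood stem cell transcription complexes, read 6.08, 6.08 and 5.93 in Cre and 5.38, 5.38 and 5.37 in EV (1.57-fold higher; limma adjusted p = 0.00228). Its groups did not overlap. Nfix, a nuclear factor I protein, read 7.57, 7.51 and 7.66 in Cre and 8.09, 8.13 and 8.13 in EV, 1.45-fold lower (limma adjusted p = 0.00556). Wapl, Lmo2, Nfix and Pbx3 kept their calls whichever array was removed. The other 2 at the unadjusted threshold were Npm1, a nucleolar protein mutated in myeloid leukaemia, at -0.23 (SE 0.07), and the receptor kinase Flt3 at 0.34 (SE 0.12).

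**Figure D4:**
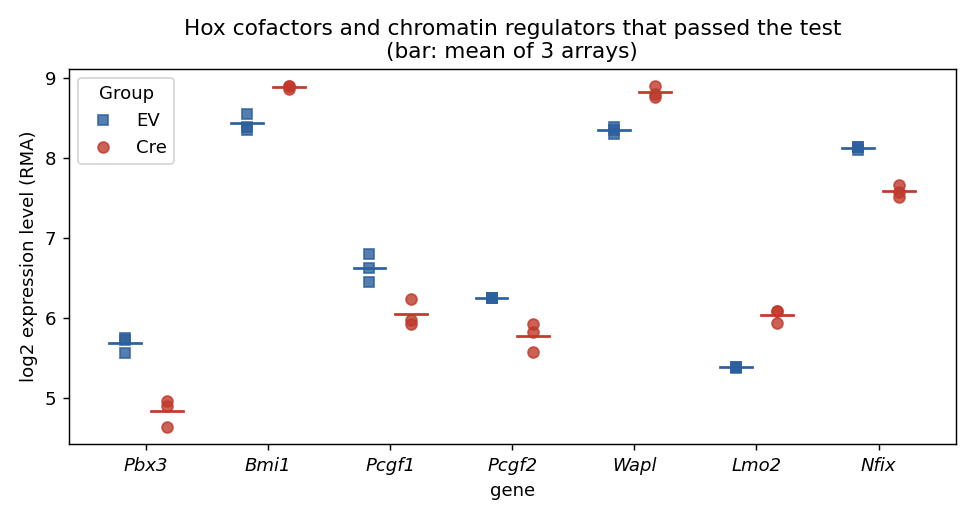
Log2 expression level (vertical axis) in each array of the 7 genes that passed the test (horizontal axis). They come from the lists of Hox cofactors, chromatin regulators and leukaemia genes. Squares are the 3 EV arrays, circles the 3 Cre arrays, and bars the group means. Bmi1, Wapl and Lmo2 lie higher in Cre, and Pbx3, Pcgf1, Pcgf2 and Nfix lower, with no overlap.

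The cells carried the markers of their label in both groups. Of 13 pre-B markers, all had mean levels above the array medians in both groups, and 6 had an unadjusted limma p below 0.05. Of all genes, 16.1% passed that threshold, 1.35% were called higher and 2.14% were called lower. The pre-B markers called were all lower in Cre. They were the recombinase genes Rag1 (-2.09, SE 0.12) and Rag2 (-1.84, SE 0.22) and Dntt, the template-free polymerase of V(D)J joining (-0.48, SE 0.09). The sum of the pre-B markers was 131.38 to 133.27 in the Cre arrays and 136.46 to 137.08 in the EV arrays, so the groups did not overlap. That sum includes Rag1, Rag2 and Dntt. The other 10 markers were not called, and the median difference over the 13 was 0.0. Lists for other cell types were read in the same way. In a list of 12 stromal and fibroblast genes, limma called 0, 3 had an unadjusted p below 0.05, 10 had a mean below the array medians, and group means lay between 2.55 and 5.75 in Cre and 2.53 and 5.75 in EV. The sum of their log2 levels was 47.42 to 47.94 in the Cre arrays and 47.48 to 48.19 in the EV arrays. Myeloid markers were all dim, and limma called 0 of 11, with 2 at an unadjusted p below 0.05; their sum was 41.72 to 41.88 in Cre and 40.52 to 41.36 in EV. Of 9 genes in the blood progenitor list 2 were called, both higher, against 1.35% of all genes. They were Cd48, at 0.98 (SE 0.07), and Slamf1, at 0.61 (SE 0.12). Of the 9 genes, 6 had a mean below the array medians. Whether the calls of Cd48 and Slamf1 reflect progenitor cells was not tested. Cd48, Rag1 and Rag2 passed whichever array was removed, whereas Slamf1 passed only without Cre replicate 3 and Dntt only without Cre replicate 1 (highest adjusted p = 0.124 and 0.108). The progenitor sum, which includes Cd48 and Slamf1, was 45.13 to 46.00 in Cre and 42.87 to 44.00 in EV. The median difference of that list was 0.1. Kit (-0.01), Cd34 (0.04), Hlf (0.01), Mecom (0.01) and Mycn (0.17) were not called. Mean readings were 7.66 in Cre and 6.68 in EV for Cd48, and 7.51 and 7.34 for Mycn. The part of the pre-B, myeloid and progenitor sums in the Hoxa values was not tested. Among 8 T and NK markers and 6 erythroid and megakaryocyte markers limma called 0, and 0 had an unadjusted p below 0.05.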

How the data were processed

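Expression was measured on 3 Cre and 3 EV arrays. The authors deposited log2 expression levels for every probe set on each array, made with RMA, per the submitters' processing notes; the version, probe annotation and build behind it were not given in the sources used here. Quantile normalization, a step of RMA, gives all arrays about the same distribution, so every change is relative to other genes. Of 25006 probe sets, 21467 had 1 gene symbol in the platform annotation, 1521 several and 2018 none; only the first kind was tested. Symbols were updated by gene ID through a RefSeq table of GRCm38.p6 (21386 matched), which also gave neighbours and the order along chromosomes. Genes with several probe sets were represented by the one with the highest mean.

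Cre was compared with EV over all 19733 genes with limma 3.58.1 in R 4.3.3 (lmFit, eBayes, group as the factor, no block), and Benjamini-Hochberg adjustment ran over all of them. The SE and 95% intervals come from the moderated fit. Tables were made with Python 3.11.15 and pandas 2.3.3, plots with matplotlib 3.10.9. The procedure was tested on simulated data. The members and the gene lists were chosen with earlier results of these data known. Arrays were given by value for called Hox genes, their cluster neighbours and the probe set with the highest mean reading in each cluster. The last is a choice of probe sets, not an order of expression. From each list the called genes were named or, with fewer than 2, those with the smallest p. Meis1, Pcgf6, Ezh2, Suz12, Kmt2a, Men1, Rara, Hoxb4, Hoxb7, Hoxd13, Hoxc8, Npm1, Flt3, Mycn, the microRNAs and the paralogues were named after their values were seen. The number of arrays limits the precision. Alternatives were the repeat number as a block, other normalization, filters on dim genes, moderation, array weights, the choice of probe sets and leaving out each array.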

Additional observations from a re-analysis of the deposited data

How the results depend on the processing

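The 5 Hox calls and the 0 calls in the other direction were the same in number with renewed quantile normalization, centred medians, trended robust moderation, array weights, other choices of probe sets and shared probe sets kept. With the dimmest 25% of genes left out 6 of 24 Hox genes passed, and with the dimmest 50% left out 2 of 6 did (Hoxa4 and Hoxa7), since Hoxa3, Hoxa5 and Hoxa6 are then no longer tested. Leaving out 1 array gave 3 to 5 Hox calls. Deviations of same-numbered repeats from their group means were hardly correlated (r 0.009, -0.012 and 0.03). That cannot show whether equal numbers mark a shared mouse or culture, which the labels do not say. With the replicate block there were still 5 Hox calls. In that fit 157 genes were called higher and 268 lower, against 267 and 422 without the block. Bmi1, Pcgf1, Pcgf2 and Slamf1 lost the call in it. Over all genes, 537 were higher and 758 lower with the dimmest 50% left out, 640 and 918 with trended robust moderation, and 138 to 169 and 215 to 270 with 1 array left out. Pcgf2 also lost the call after renewed quantile normalization (adjusted p = 0.053). Genes that were not called changed sign when 1 array was left out: Hoxa10 ranged from -0.03 to 0.09, Hoxa11 from -0.20 to 0.10, Hoxa13 from -0.04 to 0.23, Hoxb3 from -0.02 to 0.17 and Hoxd11 from -0.05 to 0.18. The cause of these shifts was not tested. With 3 arrays a group, small differences at dim probe sets can be missed.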
